A study of Mus musculus with 70 samples.

Results

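Endothelial cells line the blood vessels of the brain and, through tight junctions, form the blood-brain barrier. They are commonly recognised by a small set of transcripts. Ly6c1 encodes a GPI-anchored surface protein of brain endothelium, Cldn5 (claudin 5) is the main sealing protein of its tight junctions, and Pecam1 is an adhesion molecule at the contacts between endothelial cells. Flt1 and Kdr encode receptors for vascular endothelial growth factor, and Tek encodes the receptor for the angiopoietins. These 6 genes were taken from the MPIP24k cDNA array by matching the full name or symbol of each gene to the names of the spots. All 6 genes were found, on 8 of 24192 spots: 1 spot each for Ly6c1, Cldn5, Pecam1, Kdr and Tek, and 3 spots for Flt1. The Ly6c1 spot carries the name of locus C of the lymphocyte antigen 6 complex, and it was not tested whether it separates Ly6c1 from its close neighbour Ly6c2.

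Male CD-1 (ICR) mice of the HAB and LAB lines, selected for high and low anxiety-related behavior, were compared at 10 weeks of age under basal conditions. According to the paper, the animals had been tested on the elevated plus-maze and, some days before they were killed, in the tail-suspension test. Micropunches of the paraventricular nucleus (PVN), basolateral (BLA), central (CeA) and medial amygdala (MeA), nucleus accumbens (NAc), cingulate cortex (Cg) and supraoptic nucleus (SON) were taken, and the amplified RNA of 6 mice was pooled per line and region. Each HAB pool was hybridized against the LAB pool of the same region on 10 arrays, 70 in all. HAB was labelled with Cy3 on 5 of them and with Cy5 on the other 5. Each region thus has 1 pool per line measured repeatedly, and all regions came from the same mice, so every p-value below compares pools and is too small as a p-value of the lines. Values are log2 ratios of HAB over LAB after background correction and loess smoothing, positive where HAB exceeded LAB. In punched tissue, fewer cells of a type and less RNA per cell cannot be told apart.

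Median spot intensities ran from 135.1 to 2480 over the arrays and lines, against 39.98 to 939.9 for the empty spots. The median SD of a probe over the 10 arrays of a region was 0.539 in the PVN and 0.638 to 0.747 in the other regions. The neuropeptide genes gave a mixed check of the region labels. Vasopressin (Avp) was highest in the SON (9.42 ± 0.49 on the log2 intensity scale, SD over 10 arrays) and the PVN (9.18 ± 0.32), with 7.11 to 8.21 elsewhere, and tachykinin 1 (Tac1) was highest in the NAc (13.02 ± 0.29, with 10.29 to 12.36 elsewhere). Oxytocin (Oxt) was highest in the PVN, at 8.42 ± 0.34, but its 8.07 ± 0.90 in the SON lay within the values of the amygdala, and the 2 spots each of Penk and Prkcd had their highest levels in different regions. The PVN arrays were produced apart from the others, so region and production cannot be told apart for the PVN.

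The 8 spots differed widely in how often they could be measured. A channel was counted as above the empty spots when its intensity exceeded their median plus 2 median absolute deviations on that array. Cldn5 passed on 62 of 70 HAB channels and 65 of 70 LAB channels, and Ly6c1 on 57 HAB and 45 LAB channels. Kdr passed on 39 HAB and 30 LAB channels and Pecam1 on 33 HAB and 30 LAB channels. The Flt1 spots 2926 and 11329 passed on 21 and 19 HAB channels and on 21 and 20 LAB channels, Tek on 13 HAB and 11 LAB channels, and the Flt1 spot 2198 on 6 HAB and 7 LAB channels. With 35 channels of either line as a minimum, Ly6c1, Cldn5 and Kdr passed, as did 12504 of all 22824 probes. Cldn5 and Ly6c1 were thus the members most often above the empty spots, and the receptors Flt1 and Tek the least often. In 6 combinations of spot and region neither line was above the empty spots on any array, and no fold is given for them: the Flt1 spot 2198 in BLA, CeA and NAc, the Flt1 spot 2926 in BLA, the Flt1 spot 11329 in Cg, and Tek in BLA.

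Levels of the same spot were then followed over the regions. Cldn5 was highest in the SON, at 10.996 ± 0.35 in HAB and 11.20 ± 0.54 in LAB (log2 normalized intensity, mean ± SD of 10 arrays). In HAB mice the NAc came next (10.41 ± 0.52), followed by CeA (10.37 ± 1.33), BLA (10.16 ± 0.89), MeA (9.81 ± 0.98), Cg (9.77 ± 0.53) and PVN (9.72 ± 0.66). In LAB mice the order was SON, CeA (10.69 ± 1.44), BLA (10.21 ± 0.49), PVN (10.02 ± 0.66), Cg (9.74 ± 0.42), MeA (9.68 ± 0.95) and NAc (9.51 ± 0.64). The NAc was therefore second of 7 regions in HAB mice and last in LAB mice, although neighbouring levels in either order overlapped within their SDs. Ly6c1 was highest in the PVN in both lines, with 9.81 ± 0.24 in HAB and 9.52 ± 0.50 in LAB, and lowest in the CeA of HAB mice (8.84 ± 0.61) and the NAc of LAB mice (8.49 ± 0.38). For Pecam1 the BLA was highest (8.80 ± 0.73 in HAB, 8.72 ± 0.78 in LAB) and the SON lowest (7.49 ± 0.82 in HAB, 7.73 ± 0.90 in LAB). Kdr was highest in the CeA, with 9.35 ± 1.01 in HAB and 9.34 ± 0.85 in LAB. Tek was highest in the SON, with 8.42 ± 0.55 in HAB and 8.56 ± 0.81 in LAB. Some of these levels lay near the empty spots. Pecam1 in the SON exceeded them on 1 of 10 arrays in each line, and Tek in the SON on 4 HAB and 5 LAB arrays. Ly6c1 in the NAc exceeded them on 1 LAB array. Over the 16 orders of 8 spots and 2 lines, none of 96 gaps between neighbouring regions exceeded the sum of both SDs, and in 6 orders the gap between the highest and the lowest region did.

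**Figure D1:**
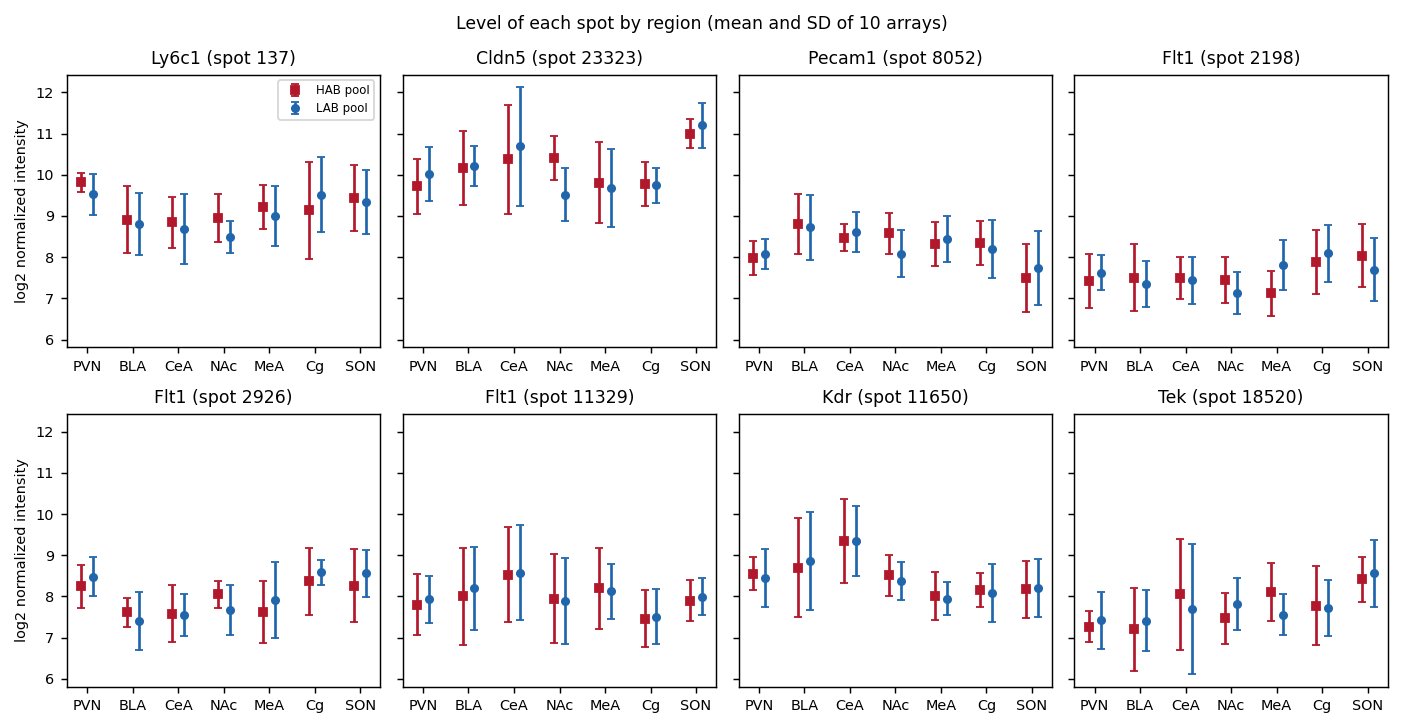
Log2 normalized intensity of each spot in the HAB pool (squares) and the LAB pool (circles) by region, with points as means and bars as SDs of 10 arrays. Cldn5 lay highest in the SON of both lines, and in the NAc it stood at 10.41 in HAB and 9.51 in LAB.

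The first comparison asked whether the endothelial genes differed between HAB and LAB mice over the whole set of regions. Of 8 spots, 0 passed limma over the 7 region values at an adjusted p of 0.05, and 0 had an unadjusted p under 0.05. Among all probes 0.302% passed (69 of 22824; 0.127% were higher and 0.175% lower in HAB) and 1445 had an unadjusted p under 0.05. The spots lay between -0.06 and 0.14 on the log2 scale, with a median of 0.02, against a median of -5e-04 for all probes. The means of Pecam1, Tek and the 3 Flt1 spots, which did not reach 35 channels in either line, rest largely on signals near the empty spots.

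Ly6c1 was the member with the smallest p. It was above 0 in 6 of 7 regions, with 0.29 in PVN, 0.10 in BLA, 0.16 in CeA, 0.46 in NAc, 0.21 in MeA and 0.10 in SON, and below 0 in Cg, with -0.38. Its mean over the regions was 0.14 ± 0.26 (SD, n = 7; 95% interval -0.05 to 0.32; limma, adjusted p = 0.885). Cldn5 had a mean of 0.03 ± 0.42 (interval -0.20 to 0.25; adjusted p = 0.99), and this small mean combined a high value in the NAc with values on both sides of 0 elsewhere. Pecam1 had 0.02 ± 0.25, Kdr 0.03 ± 0.10 and Tek 0.02 ± 0.33. The 3 Flt1 spots had -0.04 ± 0.36, -0.06 ± 0.27 and -0.05 ± 0.10. The widest of the 8 intervals belonged to Cldn5, and none of the 8 reached beyond 0.32 in either direction. Hbb-b1, the adult beta globin of red blood cells, differed in the same test: it was higher in HAB by 0.84 (adjusted p = 3.38e-04), with 0.34 in BLA as its lowest and 1.88 in SON as its highest region value. Of its 3 spots, 2 passed, and all of them can share signal with the near-identical globin copies. Hba-a1, an alpha globin of red blood cells, did not follow Hbb-b1: it had -0.10 in the same test (adjusted p = 0.924). The region values of Hba-a1 ran from -0.32 in PVN to 0.44 in SON. Hba-a1 did not reach the minimum number of channels above the empty spots in either line. The part of blood in any value of the endothelial spots was not tested.

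The second comparison was made within each region. Cldn5 in the NAc was the 1 of 56 combinations of spot and region that passed limma over the 10 arrays, where 1.25% of all probes passed (286 of 22824; 0.254% were higher and 0.999% lower in HAB). On the 5 arrays with HAB in Cy3 the Cldn5 log2 ratios were 0.92, 2.25, 0.93, 0.15 and 1.36. On the 5 arrays with HAB in Cy5 they were -0.04, 0.94, 0.38, 1.28 and 0.76. Thus 9 of 10 arrays were above 0, the remaining array was close to 0, and both dye orientations gave a positive mean (1.12 ± 0.77 for HAB in Cy3 and 0.66 ± 0.51 for the exchanged dyes, SD, n = 5 each). The LAB signal exceeded the empty spots on 8 of the 10 arrays. The largest ratio, 2.25, belonged to the lowest LAB intensity (151.24), where the medians of the empty spots in the NAc ran from 92.14 to 313.7. Cldn5 was higher in HAB by 0.89 ± 0.66 (SD, n = 10), a 1.86-fold difference (limma with a dye term, SE 0.19, adjusted p = 0.0436), and 0.0701% of all probes had a larger ratio in the NAc.

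The Cldn5 call was close to the threshold. Leaving out the 10 arrays one at a time gave log2 ratios of 0.75 to 1.01 and limma adjusted p-values of 0.0296 to 0.109. The call held without replicate 4 with HAB in Cy3 and without replicate 1 with HAB in Cy5, and was lost without any 1 of the other 8 arrays. The lowest of these ratios was obtained without replicate 2 with HAB in Cy3.

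**Figure D2:**
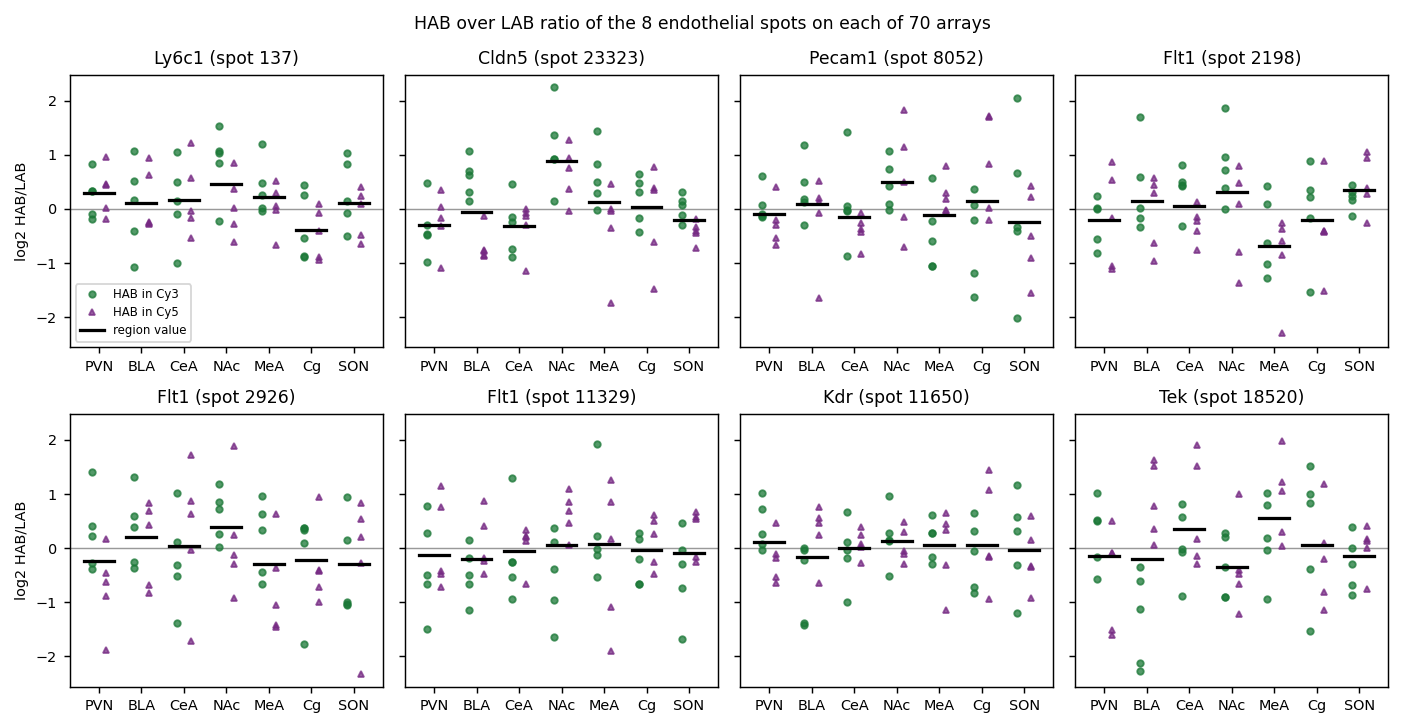
Log2 HAB/LAB of each spot on every array, by region, with circles for HAB in Cy3, triangles for HAB in Cy5 and black lines for the region value over 10 arrays. Cldn5 in the NAc has 9 of 10 arrays above 0, while in most other panels the points of both dyes lie on both sides of 0.

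In the other regions Cldn5 had -0.30 ± 0.51 in PVN, -0.05 ± 0.73 in BLA, -0.32 ± 0.47 in CeA, 0.13 ± 0.84 in MeA, 0.03 ± 0.70 in Cg and -0.20 ± 0.31 in SON. In the CeA 9 of 10 arrays were below 0, without passing the test (adjusted p = 0.482). The line difference of Cldn5 itself differed between the regions (limma F-test over the 70 arrays, F = 5.01, adjusted p = 0.0108), as it did for 4.06% of all probes. The F-test does not say which regions differ. The other 7 spots did not pass it, with adjusted p-values of 0.207 to 0.996.

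The other endothelial spots in the NAc were mostly on the HAB side of 0 without passing the test. Ly6c1 had ratios of -0.23, 0.86, 1.03, 1.52 and 1.07 with HAB in Cy3 and of 0.37, -0.28, 0.02, -0.61 and 0.85 with HAB in Cy5. Its mean of 0.46 ± 0.71 came largely from the first of these orientations (0.85 ± 0.65, against 0.07 ± 0.57 with HAB in Cy5; adjusted p = 0.33). Pecam1 had ratios of 0.09, -0.01, 0.74, 0.42 and 1.06 with HAB in Cy3 and of -0.70, -0.16, 1.82, 0.49 and 1.15 with HAB in Cy5, and a mean of 0.49 ± 0.74 (adjusted p = 0.395). Both genes were above 0 on 7 of 10 arrays. The Flt1 spot 11329 had 0.06 ± 0.85, Kdr had 0.13 ± 0.42, and Tek had -0.35 ± 0.67. The Flt1 spots 2198 and 2926 had no LAB channel above the empty spots, and the bound that this left for spot 2926 was below 1-fold, so neither gave a difference. Of the other 6 spots, with the called Cldn5 counted among them, 5 were above 0 in the NAc, against 51.2% of all probes. Among these, Ly6c1, Pecam1 and Kdr exceeded the empty spots on only 1, 2 and 2 LAB channels of 10. Of the 8 spots, 3 had an unadjusted p under 0.05 in the NAc, as had 12.1% of all probes.

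The detection counts in the NAc moved in the same direction. Ly6c1 exceeded the empty spots in 9 HAB channels and 1 LAB channel of 10, Pecam1 on 8 HAB and 2 LAB channels, Kdr on 8 HAB and 2 LAB channels, and Cldn5 on 10 HAB and 8 LAB channels. Over the 8 spots this gave 41 of 80 HAB channels and 17 of 80 LAB channels. The same held for the array as a whole in this region, where 14586 probes in HAB and 10807 in LAB were above the empty spots on at least 5 of 10 arrays. In the other regions the counts over the 8 spots were 25 to 49 for HAB and 28 to 55 for LAB. The part of this channel difference in the NAc ratios, which were normalized within each array, was not tested.

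Outside the NAc no spot passed in any region. Of all probes 0.386% passed in PVN, 0.101% in BLA, 0.0701% in CeA, 0.114% in MeA, 0.526% in Cg and 0.0789% in SON. The lowest adjusted p was 0.5 in PVN, 0.875 in BLA, 0.482 in CeA, 0.497 in MeA, 0.471 in Cg and 0.735 in SON. A second rule asked for a 1.3-fold mean and the same sign on every one of the 10 arrays. It counted 0 of 56 combinations, against 0.74% of all probes in PVN, 0.223% in BLA, 1.02% in CeA, 1.99% in NAc, 0.587% in MeA, 1.58% in Cg and 0.556% in SON.

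Outside the NAc only MeA held spots with an unadjusted p under 0.05, the angiopoietin receptor Tek and the Flt1 spot 2198. These were 2 of 8 spots, where 7.44% of all probes had such a p. Tek had ratios of 0.18, 0.81, -0.93, 1.01 and -0.04 with HAB in Cy3 and of 1.06, 0.04, 0.30, 1.21 and 1.97 with HAB in Cy5. It exceeded the empty spots in 4 HAB channels and 0 LAB channels of 10, and its difference did not pass (limma, adjusted p = 0.604). With the LAB level bounded by the lowest signal above the empty spots, the mean HAB level was 1.07-fold that of LAB. This is not a minimum difference, because the HAB mean also held channels that were not above the empty spots. The Flt1 spot 2198 exceeded them in 0 HAB channels and 1 LAB channel in MeA, which leaves no bound above 1-fold (adjusted p = 0.497). The other Flt1 spots in MeA had -0.29 ± 0.89 and 0.08 ± 1.11.

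The 2 dye orientations were then compared. In 24 of 56 combinations the means of both dye orientations had the same sign (42.9%), against 43.1% over all probes. Cldn5 in the BLA gave opposite signs in the 2 orientations. Its ratios were 0.15, 1.08, 0.31, 0.63 and 0.70 with HAB in Cy3 and -0.79, -0.86, -0.75, -0.14 and -0.87 with HAB in Cy5, so that the orientations did not overlap and their mean was near 0. Tek in the BLA, not above the empty spots in either line, did not overlap either. These were 2 of 8 spots in a region where the orientations of 11.2% of all probes did not overlap. In the other regions none of the 8 spots was so separated, against 4.89% of all probes in PVN, 5.91% in CeA, 3.75% in NAc, 6.25% in MeA, 5.6% in Cg and 4.87% in SON. Flt1 spot 11329 was on opposite sides of 0 in the 2 orientations in all 7 regions. It exceeded the empty spots on only 19 HAB and 20 LAB channels of 70, with 0 of them in the Cg. The share of all probes with opposite signs in all 7 regions is not given, so this is not read as a trait of the spot.

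**Figure D3:**
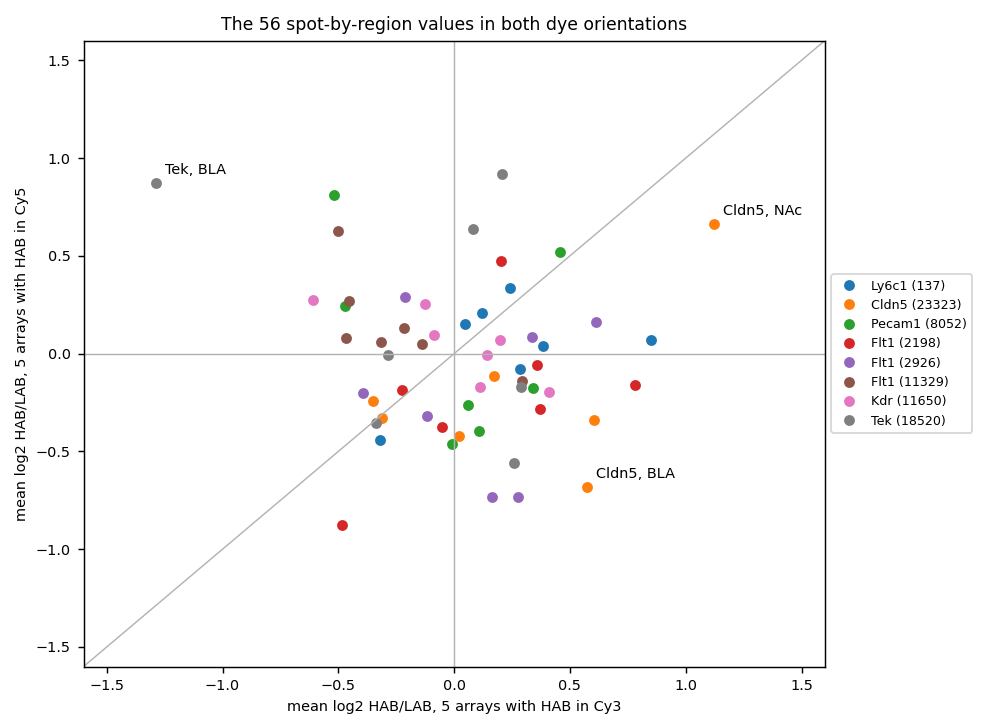
Mean log2 HAB/LAB of each spot and region over the 5 arrays with HAB in Cy3 (horizontal) and the 5 with HAB in Cy5 (vertical), coloured by spot; the diagonal marks equal values. Cldn5 in the NAc lies at 1.12 and 0.66 on the same side of 0, while Cldn5 in the BLA lies at 0.57 and -0.68.

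Further genes of vessels and of cells next to them were followed by lists, with the brightest spot standing for a gene. Of 186 listed genes, 147 were matched to the array by name. Several had signals near the empty spots in most arrays. Among the genes named below, Icam2, Ocln, Emcn, Angpt2, Eng, Hif1a, Palmd, Ly6d, Col3a1 and Igf2 did not reach 35 channels above the empty spots in either line, and their values are given with that limit. Over the 7 regions 1 of the 147 passed, the globin Hbb-b1, so that none of the vascular genes did. In the single regions 8 of 1029 combinations of gene and region passed, 3 of them for Hbb-b1 (PVN, Cg and SON). Among all probes the share that passed in a single region ran from 0.0701% in CeA to 1.25% in NAc. Whether the single list genes named below still passed under other ways of processing was not tested.

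Among endothelial junction and adhesion genes, 0 of 19 passed over the regions and their median was 0.02. Tjp1 (ZO-1, a scaffold protein of tight junctions) had 0.16 over the regions (adjusted p = 0.844). It was higher in HAB in the Cg, by 0.71, as the 1 gene of the list that passed in a region. A further Tjp1 spot had 0.76 in the Cg and the third had 0.18, neither of them past the test. Icam2, an adhesion molecule of endothelium, had 0.16 (adjusted p = 0.844). Cdh5 (VE-cadherin), Esam, Ocln and Emcn lay between -0.11 and 0.05. In the NAc, where Cldn5 was higher, 7 of these 19 genes were above 0, against 51.2% of all probes, and their median was -0.02.

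None of the 8 VEGF and angiopoietin ligands passed over the regions (median 0.03). Figf (VEGF-D) had 0.20 and Angpt2, an antagonist or partial agonist of Tek, had 0.15 (adjusted p = 0.71 and 0.844). Among the receptors and co-receptors, 0 of 15 passed (median -0.02). Acvrl1 (ALK1, an endothelial receptor of the TGF-beta family) was the lowest of them at -0.19 (adjusted p = 0.689), with all 7 region values below 0. Its co-receptor Eng (endoglin) had -0.13 (adjusted p = 0.89). None of the 13 endothelial transcription factors passed (median -0.04). Hif1a, the oxygen-sensitive factor that drives Vegfa, had 0.27 (adjusted p = 0.523), and Klf2, a factor induced by blood flow, had -0.14 (adjusted p = 0.877).

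None of the 10 blood-brain barrier transporters passed (median 0.05). The monocarboxylate transporter Slc16a1 had -0.21 (adjusted p = 0.716) and the organic anion transporter Slco1a4 had 0.17 (adjusted p = 0.84). The glucose transporter Slc2a1, another defining gene of the barrier, had 0.01, with 0.09 in the NAc. In the NAc 7 of these 10 genes were above 0 (median 0.08), against 51.2% of all probes, and none passed. Slc7a5 had 0.55 and Tfrc 0.44 there, each above 0 on 10 of 10 arrays (limma, adjusted p = 0.0886 and 0.199). None of the 5 other Ly6 genes passed (median 0.00). Ly6d had -0.14 (adjusted p = 0.844), Ly6h had -0.07 (adjusted p = 0.958), and Ly6a, like Ly6c1 a surface protein of brain endothelium, had 0.04.

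Of 24 genes for endothelial enzymes, matrix and signalling, 0 passed over the regions (median 0.01). In the NAc, where 1.25% of all probes passed, 2 of the 24 passed, in opposite directions. Sparcl1 (hevin, a matrix protein that astrocytes also secrete) had -0.27 over the regions (adjusted p = 0.543) and was lower in HAB in the NAc (log2 ratio -0.73), with 0 of 10 arrays above 0 (adjusted p = 0.00932). The other Sparcl1 spot had -0.79 in the NAc and passed too. Palmd had 0.20 over the regions (adjusted p = 0.699). Sparc, a collagen-binding matrix protein of vessels and glia, was higher in the NAc by 0.69 on 10 of 10 arrays (adjusted p = 0.0376). Its 5 spots disagreed: a further one had 0.58 in the NAc and the other three had -0.23, -0.24 and -0.33.

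**Figure D4:**
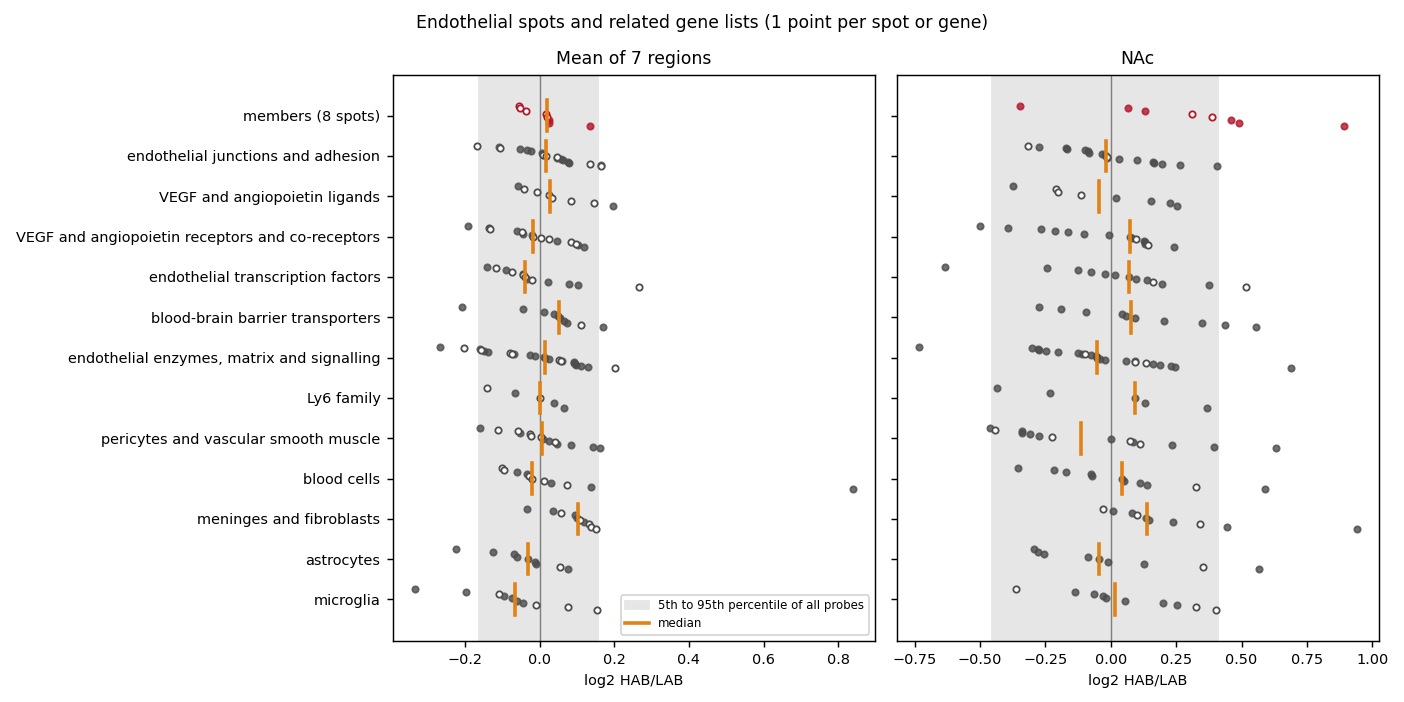
Log2 HAB/LAB over the 7 regions (left) and in the NAc (right) for the 8 endothelial spots (red) and the genes of each list (grey), with medians in orange (none for the 8 spots in the NAc) and the 5th to 95th percentile of all probes shaded. Open points did not reach 35 channels above the empty spots in either line (left) or had a line with none in the NAc (right); Cldn5 is the red point at 0.89 on the right, and Hbb-b1 the point at 0.84 on the left.

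Markers of other cells in the punches were set beside the NAc value of Cldn5. Of 14 pericyte and smooth muscle genes on the array, 0 passed in the NAc and 7 were above 0, with a median of -0.11. Only 7 of the 14 in HAB and 5 in LAB exceeded the empty spots on at least 5 of the 10 NAc arrays. The median and the count above 0 thus rest partly on signals near the empty spots. The summed linear level of the 14 genes ran from 5725 to 7834 in HAB and from 5839 to 7634 in LAB over the 10 arrays. It was higher in HAB on 8 arrays. Over the regions Kcnj8 had 0.16 and Rgs5, a pericyte gene that also stands in the list of enzymes, matrix and signalling, had -0.16 (adjusted p = 0.84 each). Of 11 blood cell genes, 0 passed in the NAc (median 0.04; summed level 3905 to 8120 in HAB and 3414 to 6333 in LAB, higher in HAB on 6 arrays), where Hbb-b1 had 0.59 (adjusted p = 0.0754). Over the regions the erythroid enzyme gene Alas2, the blood cell gene next to Hbb-b1 by p, had 0.14 (adjusted p = 0.901). Of the 11 blood cell genes, 5 were above 0 over the regions, with a median of -0.02. In the NAc 8 of the 11 in HAB and 4 in LAB exceeded the empty spots on at least 5 arrays.

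Of 10 genes of meninges and fibroblasts, 9 were above 0 in the NAc (median 0.14), against 51.2% of all probes, and 1 passed, against 1.25%. This was Ptgds (prostaglandin D2 synthase, abundant in leptomeninges), higher in HAB by 0.94 on 10 of 10 arrays (limma, adjusted p = 0.00184). The summed level of this list was 5374 to 11220 in HAB and 4151 to 7081 in LAB, higher in HAB on all 10 arrays. Bright genes weigh most in this linear sum, among them Ptgds itself (mean log2 intensity 11.44), so it does not describe the list apart from Ptgds. Only 5 of the 10 genes reached 35 channels above the empty spots, and Col1a1, Dcn and Igf2 had no LAB channel above them in the NAc. Over the regions Col3a1 had 0.15 and Igf2 had 0.14 (adjusted p = 0.83 and 0.876). Of 9 astrocyte genes, 3 were above 0 in the NAc (median -0.05; summed level 37310 to 60420 in HAB and 38660 to 64790 in LAB, higher in HAB on 4 arrays), and Gja1 (connexin 43, the main gap junction protein of astrocytes) was higher in HAB by 0.57 on 10 of 10 arrays (adjusted p = 0.0424). A further Gja1 spot passed at 0.63 and the third had 0.43. Over the regions Aldoc had -0.23 and Gjb6 had -0.12 (adjusted p = 0.626 and 0.895). None of 10 microglia genes passed in the NAc (median 0.02; summed level 5075 to 10270 in HAB and 5759 to 10090 in LAB, higher in HAB on 5 arrays). Over the regions Ctss had -0.33 and Itgam -0.20 (adjusted p = 0.189 and 0.647). The part of meningeal, astrocyte, pericyte or blood RNA in the Cldn5 difference was not tested.

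The probes whose 7 region values were most like those of each gene were named by Pearson's r over the 7 regions, among 12504 probes above the empty spots. The brightest spot stood for Flt1. For Cldn5 they were the collagen gene procollagen type XI alpha 2 (r = 0.97), with 0.59 in the NAc and -0.27 in PVN, and an unnamed EST (r = 0.97), with 0.65 in the NAc. For Ly6c1 they were the death effector domain-containing gene and RIKEN cDNA 4921524P20 (r = 0.98 each), with the lowest values in the Cg, -0.36 and -0.56. For Pecam1 they were RIKEN cDNAs E130102H24 and 2310057J16 (r = 0.98 and 0.97). For Flt1 they were RIKEN cDNA 5133400G04 and an unnamed EST (r = 0.98 and 0.96), for Kdr RIKEN cDNA A930021H16 and serine protease inhibitor 6 (r = 0.98 and 0.94), and for Tek the expressed sequence AU040950 and RIKEN cDNA 1700019H03 (r = 0.96 and 0.95). None of these 12 probes passed limma in any region. The values of r rest on 7 points, for Flt1 and Tek with regions not above the empty spots among them, and describe these pools only. These probes were picked as the best of 12504. How high an r such a choice gives by chance was not tested, so the names are no evidence of a shared profile.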

How the data were processed

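The authors deposited scanner intensities of 70 arrays, the linear intensity of each of 24192 spots and of its surroundings in both dyes, quantified in QuantArray without normalization. The authors also deposited a table of log2 ratios, filtered to between 8456 and 18770 values per array, with column medians of -0.007 to 0.011 and r of 0.861 to 0.972 against the ratios used here. It served as an alternative. Dyes were read from the file headers (on 3 arrays from the image name), and groups from the labels.

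After 1368 control spots were left out, 22824 probes remained. Intensities were corrected with normexp (offset 50; 79.6% of the background values were 0), smoothed by loess over 40% of the spots, and centred on the median of each of 48 print-tip blocks. Ratios were averaged within each dye orientation and then over both. limma 3.58.1 (R 4.3.3) tested the intercept over 7 region values, each region over 10 arrays with a dye term, and the equality of the regions over 70 arrays, with Benjamini-Hochberg adjustment over all probes and a threshold of 0.05. Levels were taken per line after Aquantile scaling. Replicate numbers did not pair the arrays. Gene names are those of the array.

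The members and lists were chosen with earlier results of these data known. Named were all member spots, of each list the 2 genes with the smallest p over the regions and any that passed, the 2 probes most like each member, and a few further list genes, chosen after their values were seen.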

Additional observations from a re-analysis of the deposited data

Results flagged for a closer look

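Of 112 groups of 5 arrays (8 spots, 7 regions, 2 dye orientations), 6 held a ratio set apart from the other 4 by more than 0.71 of the group's range, where chance gives about 1 in 20. Cldn5 had -0.14 on 1 array in the BLA with HAB in Cy5, against -0.87 to -0.75 on the others. It had -1.14 on 1 array in the CeA with HAB in Cy5, against -0.29 to -0.004. Pecam1 had 0.61 on 1 array in the PVN with HAB in Cy3, against -0.15 to 0.07, and -1.65 on 1 array in the BLA with HAB in Cy5, against -0.08 to 0.52. The Flt1 spot 2926 had -1.77 on 1 array in the Cg with HAB in Cy3, against 0.09 to 0.38. The Flt1 spot 11329 had -0.66 on 1 array in the CeA with HAB in Cy5, against 0.14 to 0.34.

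The line difference of Cldn5 differed between the regions (limma F-test, F = 5.01, adjusted p = 0.0108), without the test saying which regions differ. Its value was 0.89 in the NAc and ran from -0.32 (CeA) to 0.13 (MeA) in the others, where it did not pass.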

How the results depend on the processing

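No member spot passed over the regions under any of the alternatives tried. Among all probes, 69 passed there, 366 with only the arrays with HAB in Cy3, 328 with only those with HAB in Cy5, and 34 with the mean of a gene's spots. Between the regions 926 probes passed and 501 without the print-tip step, and Cldn5 passed in both. The Cldn5 value in the NAc stayed past the threshold without background correction (0.92, adjusted p = 0.0495), in the deposited value table (0.80, 0.0212) and under 4 alternatives chosen after seeing the data (0.89 to 1.15). The replicate numbers did not pair the arrays (35 pairs of arrays, r = -0.05 to 0.04); with the number as a block Cldn5 had 0.89 (adjusted p = 0.116), and 0 member spots passed. Without 1 replicate number it ranged from 0.71 to 1.00 (adjusted p = 0.0737 to 0.208), and without 1 array from 0.75 to 1.01; 0 member spots passed without any 1 replicate number.

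The count of member spots at 1.3-fold with all arrays in 1 direction was 0, and 1 without replicate 1 (Cldn5 in NAc) or replicate 4 (Cldn5 in CeA). Counts of all probes in the NAc were 286, 84 with the replicate block, 86 to 112 without 1 replicate number, 1369 after median centring, 653 among probes above the empty spots and 598 in the value table. With the block the other counts were 25 (88 without it) in PVN, 17 (23) in BLA, 7 (16) in CeA, 9 (26) in MeA, 10 (120) in Cg and 15 (18) in SON. In BLA, CeA and Cg the file headers gave 2 dates. With the date as a term or within a date no member spot passed, and 20 probes in BLA, 7 in CeA and 64 in Cg passed with the term. Of the values of single spots, 27 of 156 over the regions and 58 of 668 within them changed sign under an alternative, all of them uncalled; Ly6c1 changed sign in none over the regions. The cause was not tested. Intensity near that of the empty spots limited Flt1 and Tek most.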
